A study of Mus musculus with 12 samples.

Results

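Vehicle and E2 plus fulvestrant were compared by ATAC-seq, which maps accessible chromatin through the DNA that the Tn5 enzyme can reach, in primary fibroblasts of the lower abdominal muscle (LAM) of Aromhum mice, a line with a transgene for human aromatase, the enzyme that converts androgen to estrogen. The comparison used 6 of the 12 libraries of the series, 3 for each group, and took every peak on chromosomes 1 to 19 and X. The 6 lists held 358196 of the 647907 such peaks of the series. Peaks that overlapped or touched were merged into 283617 regions, against 431930 when all 12 lists were merged. Each region was then described by how many lists of each group called it, by whether its summit lay within 3000 bp of an annotated transcript start (promoter) or farther away (distal), and by the rank of its fold enrichment within each list.

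Cells of both groups were starved overnight in serum-free medium without phenol red, held in DMSO or fulvestrant for 3 hours, and then given ethanol or E2 for 1 hour. Vehicle cells received DMSO and ethanol. The E2 plus fulvestrant cells received 100 nM fulvestrant and then 10 nM E2. The cultures were first-passage primary cells, and the labels tie no library to a mouse or a culture, so p-values measure the spread between these libraries, which may be technical.

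Estradiol (E2) binds the receptor ESR1, which attaches to DNA at estrogen response elements and, with coactivators and pioneer factors, opens or maintains accessible chromatin near target genes. Fulvestrant competes with E2 for the receptor and promotes its degradation. Comparing both drugs together with neither therefore addresses what chromatin looks like when E2 is present and its receptors are blocked. In fibroblasts, promoters of active and inducible genes, such as those of the AP-1 factors Fos and Jun, are commonly the most accessible sites.

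Examples of the regions named further on are shown first, as 201-base windows centred on the summit. They were read from the forward strand of mouse build GRCm38 (mm10), and none passed a test between the groups. Matches to the 8 motifs named further on are in capitals. The first 3 were called in every E2 plus fulvestrant list and in no vehicle list. They are the highest-ranked promoter region (in Setd4) and the highest-ranked distal regions (in introns of Tdrd1 and Rcor1).
Setd4, chr16:93598092-93598292: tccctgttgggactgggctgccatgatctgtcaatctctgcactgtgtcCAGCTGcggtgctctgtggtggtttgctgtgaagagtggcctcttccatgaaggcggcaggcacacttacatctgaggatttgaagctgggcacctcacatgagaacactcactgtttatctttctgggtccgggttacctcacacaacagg
Tdrd1, chr19:56847530-56847730: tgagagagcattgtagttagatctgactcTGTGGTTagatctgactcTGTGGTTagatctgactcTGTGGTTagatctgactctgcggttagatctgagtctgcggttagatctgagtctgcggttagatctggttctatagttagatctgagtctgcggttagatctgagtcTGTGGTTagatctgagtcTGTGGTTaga
Rcor1, chr12:111064591-111064791: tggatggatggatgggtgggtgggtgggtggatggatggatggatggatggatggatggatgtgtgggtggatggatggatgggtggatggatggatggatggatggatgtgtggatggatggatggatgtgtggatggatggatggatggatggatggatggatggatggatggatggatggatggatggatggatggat
The next 3 were called in every vehicle list and in no E2 plus fulvestrant list. They are the highest-ranked distal regions, near Scarf2 and Slc16a7, and the distal region ranked 4, near Sec61g. The Sec61g region is shown because it is the only named region with an AP-1 match. Such a match was in 2.38% of vehicle-only distal windows and 4.20% of all distal windows.
Scarf2, chr16:17809883-17810083: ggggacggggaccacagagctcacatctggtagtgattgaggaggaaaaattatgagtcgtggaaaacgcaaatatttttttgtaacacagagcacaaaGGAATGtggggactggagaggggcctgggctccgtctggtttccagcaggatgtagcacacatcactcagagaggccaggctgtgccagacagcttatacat
Slc16a7, chr10:125598717-125598917: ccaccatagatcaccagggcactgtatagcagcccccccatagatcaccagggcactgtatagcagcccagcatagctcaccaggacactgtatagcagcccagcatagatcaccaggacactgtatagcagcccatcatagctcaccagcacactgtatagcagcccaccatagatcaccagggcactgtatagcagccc
Sec61g, chr11:16591527-16591727: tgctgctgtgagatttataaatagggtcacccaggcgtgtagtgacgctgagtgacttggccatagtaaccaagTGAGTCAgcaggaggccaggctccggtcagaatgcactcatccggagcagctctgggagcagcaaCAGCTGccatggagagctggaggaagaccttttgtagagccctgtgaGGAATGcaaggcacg
The last pair was called in all 6 lists and had the lowest p for a higher (nearest gene Dpp10) and for a lower (Ryr2) rank with E2 plus fulvestrant, although neither passed the test.
Dpp10, chr1:123303724-123303924: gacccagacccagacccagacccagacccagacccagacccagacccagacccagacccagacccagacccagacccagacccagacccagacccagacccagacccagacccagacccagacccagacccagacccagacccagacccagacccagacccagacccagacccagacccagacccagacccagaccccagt
Ryr2, chr13:11960043-11960243: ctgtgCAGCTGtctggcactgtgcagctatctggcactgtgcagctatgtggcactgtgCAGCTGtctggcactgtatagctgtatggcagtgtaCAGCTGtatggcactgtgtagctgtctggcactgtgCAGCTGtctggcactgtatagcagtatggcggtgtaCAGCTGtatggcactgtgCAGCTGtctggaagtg
Several of these windows were tandem repeats. The Dpp10 window repeated a unit of 6 bases, with 97.9% of bases equal to the base 6 positions on, the Tdrd1 window a unit of 18 bases (88.0%), and the Rcor1 window matched itself best 48 bases on (93.5%). The Ryr2 window repeated at 54 bases (85.0%) and the Slc16a7 window at 33 bases (77.4%). The Setd4, Scarf2 and Sec61g windows had no such structure (at most 37.1% at any shift of 1 to 60 bases).

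The 6 lists differed in size and in kind before any comparison of treatments. The vehicle lists held 77163, 109449 and 43253 peaks and the E2 plus fulvestrant lists 60703, 35121 and 32507 for replicates 1 to 3, while peaks with q of 0.05 or less numbered 13757, 17397 and 19950 against 24882, 2216 and 2188. Replicates 1 and 3 of vehicle and replicate 1 of E2 plus fulvestrant had the highest promoter shares (27.4%, 37.8% and 33.6%) and the highest median ranks of promoter peaks (63.7, 69.4 and 70.5 on a scale where 100 is the top of the list). Replicate 2 of vehicle and replicates 2 and 3 of E2 plus fulvestrant had promoter shares of 19.6%, 21.7% and 24.5% and median promoter ranks of 52.1, 50.7 and 51.1. Counts that require all 3 E2 plus fulvestrant lists therefore rest on 2 lists of the second kind, and the vehicle counts on 1. Because tags are whole numbers, many peaks of a list share one value, and the same percentiles recur (70.2 in vehicle replicate 2 stood for 5 tags). The local background recovered from the lists was 0.713 to 1.02 tags in vehicle and 1.02 to 1.11 in E2 plus fulvestrant, and the smallest pileup listed was 3 or 4 tags. Replicate 1 of either group had 34 and 22 peaks on chromosome Y, against 854 to 1067 in the other 4 lists, and replicate 1 of E2 and of fulvestrant had 36 and 35. The replicate 1 libraries of all treatments thus stood apart from replicates 2 and 3, and may come from another animal, which the labels do not give. The study reports that it used male mice, and the source of the difference was not tested. Differences within number 1 and within numbers 2 and 3 are therefore printed beside the pooled values.

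**Figure D1:**
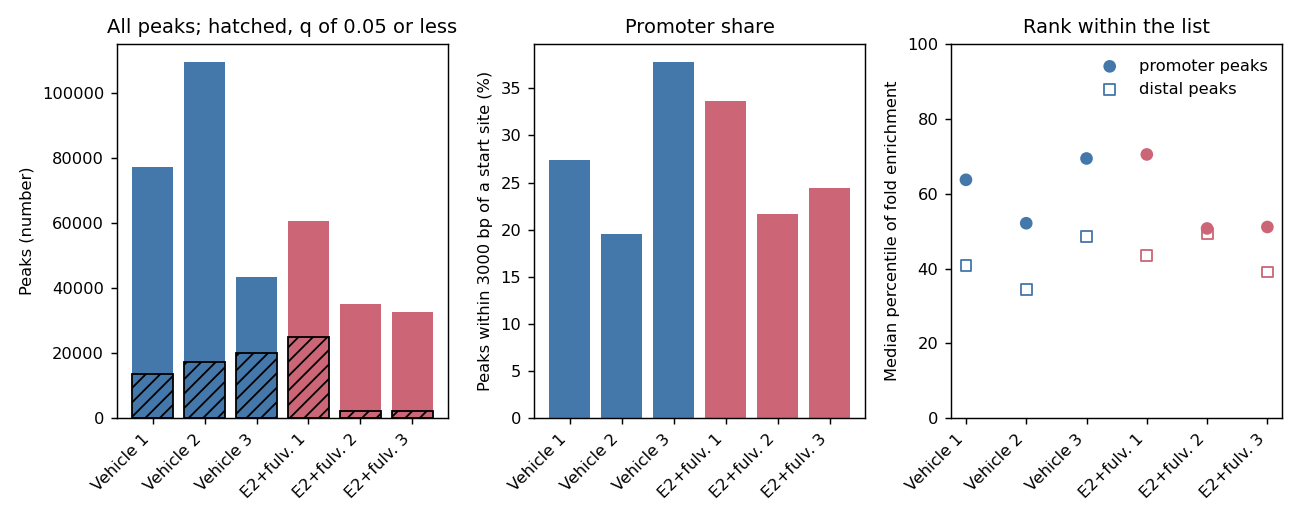
Peaks by library (left; hatched bars, peaks with q of 0.05 or less), the percentage of peaks within 3000 bp of a start site (centre), and the median percentile of fold enrichment of promoter (filled circles) and distal (open squares) peaks within each list (right); vehicle is blue and E2 plus fulvestrant red. Vehicle 1, vehicle 3 and E2 plus fulvestrant 1 had median promoter ranks of 63.7 to 70.5, and the other 3 libraries 50.7 to 52.1.

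Fewer peaks were listed on average with E2 plus fulvestrant, but the permutation test could not settle the difference. The log2 peak number was 16.1 ± 0.676 in vehicle and 15.3 ± 0.491 in E2 plus fulvestrant (mean ± SD, n = 3 each), a difference of -0.80 (exact two-sided permutation test, p = 0.2; the smallest p that 3 against 3 libraries allow is 0.1). Within replicate number 1 the difference was -0.35, and within numbers 2 and 3 it was -1.03. The groups overlapped, since vehicle replicate 3 had fewer peaks than E2 plus fulvestrant replicate 1.

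Promoter share and rank did not differ beyond the spread between libraries. The promoter share was 28.2% ± 9.15 in vehicle and 26.6% ± 6.25 in E2 plus fulvestrant (SD, n = 3 each; difference -1.65 percentage points, exact permutation p = 0.8). Promoter peaks had a median rank of 61.8 ± 8.82 in vehicle and 57.4 ± 11.3 in E2 plus fulvestrant (difference -4.31 percentile points, exact permutation p = 0.7). Distal peaks had median ranks of 41.3 ± 7.08 and 44.0 ± 5.21 (difference 2.72, exact permutation p = 0.7). Direction depended on the replicate number: within number 1 the promoter share and promoter rank were higher with E2 plus fulvestrant, by 6.27 percentage points and 6.77 percentile points, and within numbers 2 and 3 they were lower (-5.61 and -9.85).

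Most regions were found once. Of the 283617 regions, 237443 were called in a single list, 157680 of them in a vehicle list and 79763 in an E2 plus fulvestrant list. All 6 lists called 863 regions, 233 promoter and 630 distal. The most frequent combination of several lists was not a treatment group: 8708 regions were called in vehicle replicates 1 and 3 and E2 plus fulvestrant replicate 1 and nowhere else among the 6, and 71.4% of them were promoters, against 22.8% of all regions. In these 8708 regions E2 plus fulvestrant replicate 1 ranked above both vehicle lists at 3285, between them at 3548 and below both at 1875. Their promoter regions had median percentiles of 92.2 and 86.7 in the vehicle lists and 91.1 in the E2 plus fulvestrant list. In libraries that took no part in the merge, the same regions were called at 93.9% and 95.6% in replicate 1 of E2 alone and of fulvestrant alone, and at 2.10% to 33.9% in their replicates 2 and 3.

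**Figure D2:**
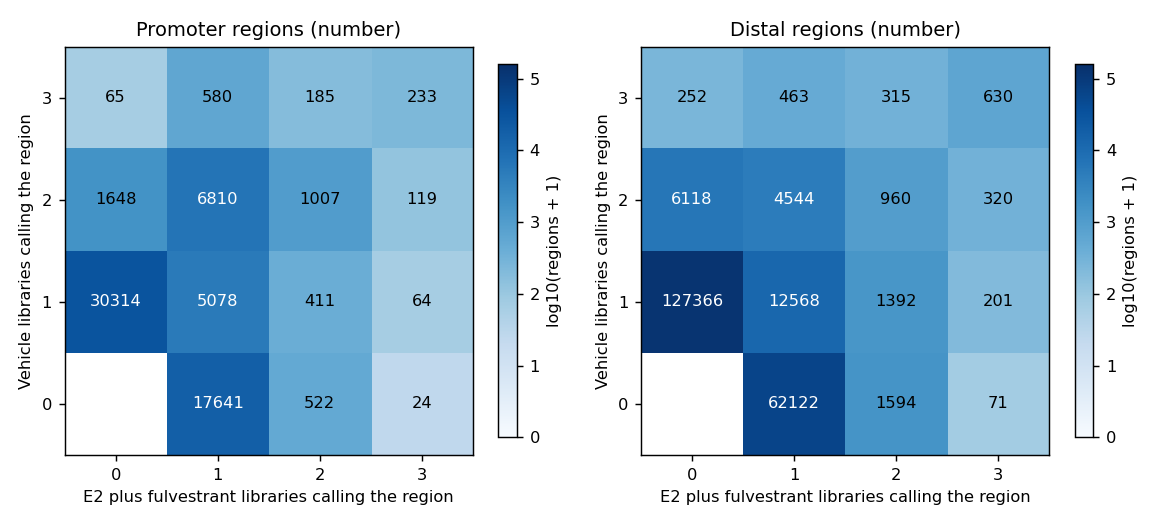
Number of promoter (left) and distal (right) regions by how many vehicle (vertical axis) and E2 plus fulvestrant (horizontal axis) libraries called them; shading is log10 of the number plus 1. The corners for 3 libraries of one group and none of the other hold 65 and 24 promoter and 252 and 71 distal regions, and 6810 promoter regions were called in 2 vehicle and 1 E2 plus fulvestrant libraries.

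Few regions separated the groups completely. All vehicle and no E2 plus fulvestrant lists called 317 regions, which is 0.112% of the 283617, and all E2 plus fulvestrant and no vehicle lists called 95, which is 0.0335%. A single region of this kind cannot pass a test with 3 against 3 libraries, so these are counts of presence only. The excess on the vehicle side turned around when each list was reduced to its 20000 peaks with the lowest p, which left 32 vehicle-only and 68 E2 plus fulvestrant-only regions. Peaks with q of 0.05 or less gave 41 and 12. Every library moved these counts when left out: without vehicle replicate 1, 2 or 3 they were 1914 and 148, 1872 and 252, and 4861 and 136, and without E2 plus fulvestrant replicate 1, 2 or 3 they were 1125 and 737, 395 and 843, and 406 and 814. The side with more regions thus turned without E2 plus fulvestrant replicate 2 or 3. Without the 3 lists of lower promoter share (vehicle 1 and 3 against E2 plus fulvestrant 1, an unequal comparison) the counts were 2262 and 38443.

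Promoters made up 20.5% of the vehicle-only regions (65 of 317; 95% Wilson interval 16.4% to 25.3%) and 25.3% of the E2 plus fulvestrant-only regions (24 of 95; 17.6% to 34.8%), beside 22.8% of all regions. Distal vehicle-only regions lay a median of 44.6 kb from the nearest protein-coding start, distal E2 plus fulvestrant-only regions 22.7 kb, and all distal regions 37.1 kb. Median GC content of the summit window was 50.7% and 50.2%. Tandem repeats (80% or more of bases equal at some shift of 1 to 60) took up 7.89% of the vehicle-only and 15.8% of the E2 plus fulvestrant-only regions, 25.7% of regions called in all 6 lists, 3.73% of those called in exactly 3 lists of both groups, and 1.57% of all regions. The part that repeats play in the calling was not tested.

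Few of these regions passed a stricter threshold in every list. Only 5 of the 317 vehicle-only and 4 of the 95 E2 plus fulvestrant-only regions had q of 0.05 or less in all 3 lists that called them. Their median percentile was 59.9, 70.2 and 39.7 in the 3 vehicle lists and 52.0, 70.4 and 57.0 in the 3 E2 plus fulvestrant lists.

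Among regions called only with E2 plus fulvestrant, 4 of the 5 highest-ranked distal regions lay in introns. A region in an intron of Rcor1, which encodes a corepressor of the REST complex (chr12:111064511-111064917), had fold enrichments of 5.22, 7.02 and 5.66 in the 3 lists, from pileups of 10, 16 and 11 tags, and percentiles of 86.5 to 99.3. It passed q of 0.05 in all 3 lists. It was also called in all 3 E2 and all 3 fulvestrant libraries, so that vehicle was the only treatment in which no list called it. A region in an intron of Tdrd1, a Tudor-domain gene of germ cells (chr19:56847480-56848174), had fold enrichments of 5.36, 4.73 and 3.95, and was called in 1 of 3 E2 and 3 of 3 fulvestrant libraries. An intergenic region 86238 bp upstream of Sema6d, a semaphorin (chr2:124003585-124003847), had the highest fold enrichment of the 10 named E2 plus fulvestrant-only regions, with values of 5.22, 10.9 and 6.92, and was called in 3 E2 and 2 fulvestrant libraries. Repeat sequence made up 88.6% of its window. Regions in Dglucy (5.22, 3.66 and 6.73) and in Arhgap18 (4.75, 3.79 and 3.96), completed the 5 highest-ranked distal regions. The Rcor1 and Dglucy windows were wholly masked as repeats in the reference, and 76.6% of the Arhgap18 window was.

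Promoter regions called only with E2 plus fulvestrant reached lower values. The highest-ranked lay 776 bp upstream of a start of Setd4, a SET-domain methyltransferase gene (chr16:93597830-93598338), with fold enrichments of 4.55, 3.79 and 3.74 from 9, 7 and 7 tags. The next lay 66 bp from the start of Irx1, an Iroquois homeobox factor, with its summit in a coding exon (chr13:71959190-71959910), at 3.80, 3.31 and 3.46. Ifna13, an interferon-alpha gene, had a region 1674 bp upstream (chr4:88645803-88646295) at 3.32, 3.79 and 3.46, which 2 E2 and 3 fulvestrant libraries also called. The other members of this group of 5 lay far from the nearest protein-coding start, 245460 bp from Gm10324 and 122330 bp from Gm38393, and were promoters by another annotated transcript start. Of the 5, 4 had q of 0.05 or less in only 1 list and the Ifna13 region in no list.

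Vehicle-only distal regions were led by a region 5174 bp from a start of Scarf2, a scavenger receptor (chr16:17809863-17810468), with fold enrichments of 3.54, 4.42 and 5.64 from 6, 9 and 14 tags. An intergenic region 209352 bp upstream of Slc16a7, which encodes a monocarboxylate transporter (chr10:125598707-125599194), had 4.67, 5.0 and 4.95 and passed q of 0.05 in all 3 lists. A region in an intron of Nbea had 3.50, 5.0 and 4.96, and its window was wholly masked as repeats. The region 83143 bp upstream of Sec61g, a subunit of the translocon (chr11:16591481-16591884), had 4.67, 3.34 and 5.95, with matches to the AP-1, TEAD and E-box motifs in its window. A region near Gm4884 (3.57, 3.65 and 4.07) completed the 5. The Slc16a7 region was called in 1 E2 and no fulvestrant library, and the Scarf2 region in 1 E2 and 2 fulvestrant libraries.

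Among vehicle-only promoters, the highest-ranked region lay in an intron of Nlrc5, a regulator of MHC class I genes, beside the start of another transcript (chr8:94502478-94502781), with fold enrichments of 4.02, 9.60 and 5.13, and 88.6% of its window was repeat sequence. A region over the 5' end of Elf5, an epithelial ETS factor (chr2:103411836-103412513), had 3.50, 3.43 and 5.94 and was called in no E2 and 1 fulvestrant library. The region at Asb3, 371 bp inside the gene (chr11:30954296-30954940), had 4.09, 3.34 and 3.97. A region near Vmn2r117, a vomeronasal receptor, had 3.50, 3.34 and 4.96, and was called in none of the E2 and fulvestrant libraries. The remaining region lay in a coding exon of the T-cell receptor segment Trav9-4 (3.50, 3.89 and 3.97).

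The one-group regions were then read in the E2 and fulvestrant libraries, which had not chosen them. E2 plus fulvestrant-only regions were called in 34, 38 and 22 of 95 cases in the 3 E2 libraries and in 36, 34 and 37 in the 3 fulvestrant libraries. The means were 33.0% ± 8.76 and 37.5% ± 1.61 (SD, n = 3 each; difference 4.56 percentage points, exact two-sided permutation p = 0.7). Vehicle-only regions were called at 44.2%, 24.0% and 20.5% in E2 and at 36.3%, 20.5% and 23.0% in fulvestrant (29.5% ± 12.8 against 26.6% ± 8.47, difference -2.94, exact permutation p = 0.7). Both directions thus overlapped between the single-drug groups. For vehicle-only regions the highest shares were those of replicate 1, and without that number the means were 22.2% and 21.8%. None of the E2 and fulvestrant libraries called 81 of the 317 vehicle-only and 19 of the 95 E2 plus fulvestrant-only regions. All 3 fulvestrant and no E2 libraries called 2 and 0 of them, and all 3 E2 and no fulvestrant libraries 1 and 1. Regions called in exactly 3 of the 6 lists, with both groups among them, were called at 77.0%, 12.2% and 9.53% in E2 and at 76.6%, 29.3% and 12.8% in fulvestrant.

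**Figure D3:**
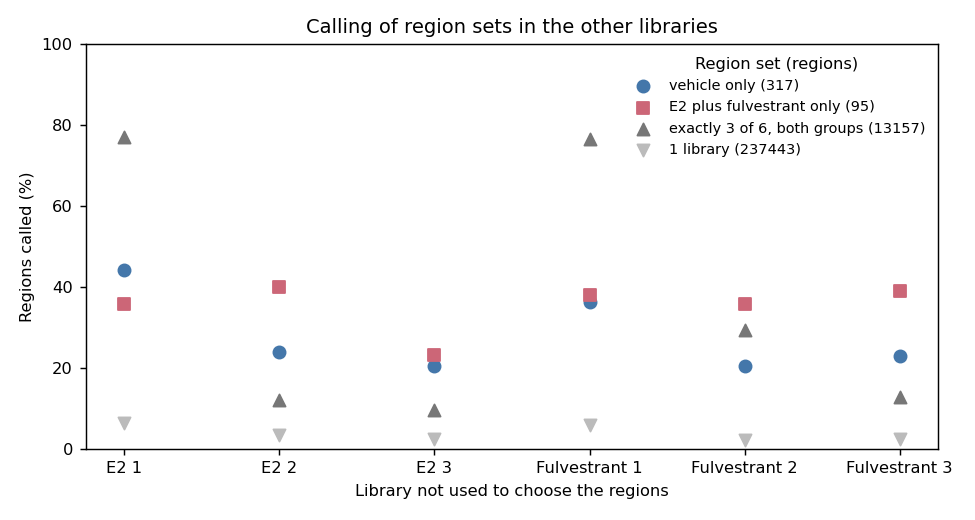
Percentage of each region set that was called in each E2 and fulvestrant library, none of which chose the regions, with regions called in 1 library as light inverted triangles. Regions of E2 plus fulvestrant only (squares) overlapped between the treatments (22 to 38 of 95 in E2 and 34 to 37 in fulvestrant), vehicle-only regions (circles) were highest in the replicate 1 libraries, and regions called in exactly 3 lists of both groups (triangles) reached 77.0% and 76.6% there.

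Ranks were tested at the 863 regions called in all 6 lists, where both groups had a value in every library. Ranks were turned into normal scores and fitted across all 863 regions with limma. None passed an adjusted p of 0.05 in either direction (0 of 863, 0%), and the lowest adjusted p was 0.997 (limma, Benjamini-Hochberg). At an unadjusted p under 0.05, 8 regions were higher (0.927%) and 3 lower (0.348%) with E2 plus fulvestrant. The median difference was 0.06 normal-score units, with a median standard error of 0.602. Single vehicle libraries decided the direction of the unadjusted counts, which were 74 higher and 0 lower without vehicle replicate 2 and 5 higher and 34 lower without vehicle replicate 3. Of the 863 regions, both groups' ranges were separate at 14 that were higher and 18 that were lower. A random split of 6 distinct values into 3 and 3 separates them with probability 0.1. Separate ranges at a region are therefore no sign of a treatment difference. The 863 regions sat high in all lists, with median percentiles of 90.2, 98.2 and 70.1 in vehicle and 82.1, 96.4 and 95.7 in E2 plus fulvestrant. At 386 of the 863, q was 0.05 or less in all 6.

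The regions with the lowest p in each direction did not pass, and are given for their values. The lowest belonged to the Dpp10 tandem repeat, an intergenic region 346536 bp from the start of this potassium-channel accessory gene (chr1:123303648-123304165). Its percentiles were 40.9, 34.5 and 65.0 in vehicle and 88.5, 99.4 and 99.4 in E2 plus fulvestrant, with fold enrichments of 2.92, 2.78 and 3.97 against 5.70, 8.04 and 7.42. Every E2 plus fulvestrant value was above every vehicle value, and the difference of 2.16 ± 0.533 (SE) normal-score units had an unadjusted limma p of 0.00363 and an adjusted p of 0.997. The same order held at a region 75 bp from the start of Sfi1, a centrosome gene, at 16.8, 13.6 and 34.3 against 59.9, 94.0 and 49.4. At the region in Smarca1, a chromatin remodeler, percentiles were 40.9, 34.5 and 78.4 against 83.6, 90.0 and 96.6. At the region near Rgs20 they were 73.5, 70.2 and 65.0 against 87.0, 96.4 and 98.2. At Asap2 the groups overlapped, because vehicle replicate 2 (89.4) exceeded E2 plus fulvestrant replicate 1 (87.1).

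Lower ranks were led by the Ryr2 region, in an intron of the cardiac ryanodine receptor gene (chr13:11959586-11960261). Its percentiles were 58.8, 96.5 and 48.6 in vehicle and 10.5, 35.5 and 8.25 in E2 plus fulvestrant, a difference of -1.67 ± 0.614 (SE) with an adjusted p of 0.997. The region near Gm3642 had 82.5, 92.1 and 70.6 against 37.8, 51.6 and 39.1, and the one near Gm31371 had 82.7, 53.6 and 32.2 against 14.7, 18.8 and 14.6, so that the groups did not overlap at any of these 3. At the region near Gnb4, a G-protein beta subunit, and at that in Kif21a, a kinesin, the groups overlapped. Windows of 5 of the 10 regions were tandem repeats by the definition above (Dpp10, Rgs20, Asap2, Ryr2 and Kif21a).

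**Figure D4:**
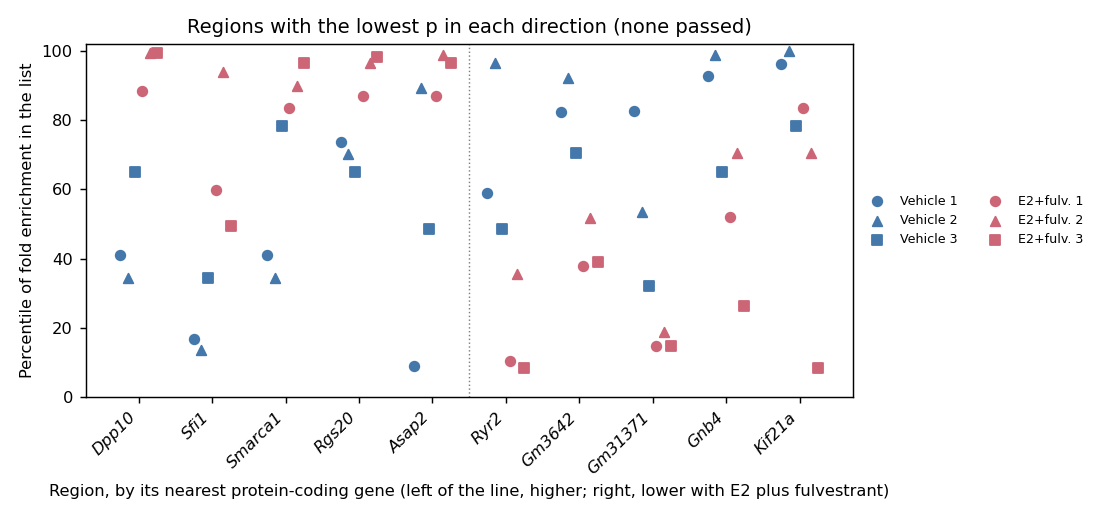
Percentile of fold enrichment within each list for the 5 regions with the lowest p for a higher (left of the dotted line) and for a lower (right) rank with E2 plus fulvestrant, named by the nearest protein-coding gene; each point is 1 library. The Dpp10 region ran from 34.5 to 65.0 in vehicle and from 88.5 to 99.4 in E2 plus fulvestrant, and no region passed the test.

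Distal summits were searched for 8 motifs, in either orientation and up to 100 bp away. The motifs were the estrogen response element (GGTCA and TGACC, 3 bases apart), AP-1 (TGACTCA), the cyclic AMP response element (TGACGTCA), CTCF by its core motif, nuclear factor I (TTGGC and GCCAA, 5 bases apart), TEAD (GGAATG), RUNX (TGTGGTT) and the E-box CAGCTG. Matches can overlap. None of the 8 shares passed an adjusted p of 0.05 (exact permutation tests, Benjamini-Hochberg over the 8, lowest adjusted p = 0.933). None could have passed, because the smallest exact p of 3 against 3 libraries is 0.1, so these tests decide nothing. The estrogen response element was in 10, 18 and 10 distal windows in vehicle and 21, 6 and 10 in E2 plus fulvestrant, which is 0.0178%, 0.0204% and 0.0372% against 0.0521%, 0.0218% and 0.0407% (exact permutation p = 0.2). The AP-1 motif was in 4.49%, 3.21% and 8.51% of distal windows in vehicle and 5.55%, 3.22% and 3.42% in E2 plus fulvestrant, and the CTCF core in 0.259%, 0.0647% and 0.658% against 0.561%, 0.0836% and 0.110%. Both were highest in the 3 lists with the highest promoter shares. No vehicle-only or E2 plus fulvestrant-only window held the estrogen response element. AP-1 was in 2.38% of the 252 vehicle-only and 1.41% of the 71 E2 plus fulvestrant-only distal windows, beside 4.20% of all 218916 distal windows.

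Genes were next described by whether a peak lay within 3000 bp of any of their starts. Of 21728 protein-coding genes, 149 had such a peak in all vehicle and no E2 plus fulvestrant lists (0.686%) and 33 in the reverse (0.152%). Of 232 genes in the 16 lists used, 2 were of the first kind and 0 of the second. Spats2l had percentiles of 25.8, 53.7 and 65.0 in vehicle, and Nav3, a microtubule-associated gene, had 73.5, 34.5 and 65.0. Spats2l is on the study's list of genes for E2 and Nav3 on its list for E2 plus fulvestrant. Both lists came from the study's comparison of E2 with E2 plus fulvestrant, in part by ATAC-seq, and not from vehicle. They share the E2 plus fulvestrant side with the present comparison, so they are not independent evidence of direction.

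Fibroblast markers were called most often in the 3 libraries with the highest promoter shares. Of 19 fibroblast markers, 14, 9 and 16 had a promoter peak in the vehicle lists and 16, 4 and 3 in the E2 plus fulvestrant lists, while all protein-coding genes were called at 58.1%, 44.5% and 54.0% against 60.7%, 20.2% and 22.3%. Col1a2, a chain of type I collagen, was called in 5 lists, at percentiles of 95.7, 34.5 and 90.1 in vehicle and 98.0 and 39.1 in E2 plus fulvestrant replicates 1 and 3. Vim, the intermediate filament of mesenchymal cells, was called in the same 5, at 95.4, 6.64 and 89.4 against 97.2 and 72.7. Pdgfra, the receptor that marks fibro-adipogenic progenitors, was called in 4, as were several other markers, at 63.7, 34.5 and 56.0 against 76.4 in replicate 1. Other markers were called less often. Of the 6 lists, only E2 plus fulvestrant replicate 1 called Col3a1 (70.5) and Ly6a (36.2), and only vehicle replicate 3 called Lum (24.5). Skeletal muscle markers were called at 3, 5 and 1 of 9 against 4, 3 and 2, endothelial markers at 1, 5 and 2 of 5 against 1, 1 and 2, immune markers at 4, 3 and 2 of 6 against 1, 1 and 2, epithelial markers at 2, 2 and 1 of 4 against 0, 0 and 1, Schwann markers at 1, 1 and 2 of 4 against 3, 0 and 2, and adipocyte markers at 2, 1 and 1 of 4 against 1, 1 and 1. Epcam, Adipoq and Fabp4 were called in none of the 6, nor were the muscle genes Pax7, Myod1 and Myh4. The part of other cell types in the calls was not tested.

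Estrogen receptors and targets were called in both groups. Of 17 genes, 11, 8 and 12 were called in vehicle and 11, 4 and 3 in E2 plus fulvestrant. That is 64.7%, 47.1% and 70.6% against 64.7%, 23.5% and 17.6%, beside 58.1%, 44.5% and 54.0% against 60.7%, 20.2% and 22.3% of all protein-coding genes. Esr1, the receptor that both drugs bind, had promoter peaks at percentiles of 70.2 and 48.6 in vehicle replicates 2 and 3 and of 98.2 and 98.9 in E2 plus fulvestrant replicates 2 and 3, and none in either replicate 1. With E2 alone it was called in replicates 2 and 3 as well (88.2 and 89.2). With fulvestrant alone it was called in replicate 2 (78.5) and not in replicates 1 and 3. These percentiles were not tested. Pgr, the progesterone receptor gene and a classical target, was called in vehicle replicates 1 and 2 (23.9 and 70.2), in no E2 plus fulvestrant or fulvestrant library, and with E2 alone in replicates 1 and 3 (49.6 and 89.2). Greb1, another classical target, was called in vehicle replicates 1 and 2 (73.5 and 51.4) and E2 plus fulvestrant replicate 2 (59.6). It was also called with E2 alone in replicates 1 to 3 (81.6, 31.4 and 70.5) and with fulvestrant alone in replicate 3 (59.9). Igfbp4, an IGF-binding protein, was called in 5 lists, at 40.9, 58.0 and 75.8 against 85.5 and 84.4. Rara and Xbp1 were called in every vehicle list and in E2 plus fulvestrant replicate 1, at 90.3, 92.3 and 88.2 against 87.0 and at 96.4, 58.0 and 86.3 against 89.3. So was the receptor gene Esr2, at 9.09, 94.6 and 65.0 against 83.6.

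Early response genes split by library, as all protein-coding genes did. All 20 had a promoter peak in vehicle replicates 1 and 3 and in E2 plus fulvestrant replicate 1, against 8 in vehicle replicate 2 and 3 and 6 in E2 plus fulvestrant replicates 2 and 3. That is 100%, 40% and 100% in vehicle and 100%, 15% and 30% in E2 plus fulvestrant. Over all protein-coding genes the shares were 58.1%, 44.5% and 54.0% against 60.7%, 20.2% and 22.3%. Jun was the only one called in all 6, at 98.0, 70.2 and 97.7 in vehicle and 97.9, 14.9 and 64.0 in E2 plus fulvestrant. Fosl2 had 99.1, 84.3 and 97.3 against 97.4 and 17.7, and Klf2 had 96.2, 58.0 and 97.3 against 97.4 and 86.1, in replicates 1 and 3 of E2 plus fulvestrant.

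Heat shock, hypoxia and cell cycle genes were called most often in the same 3 libraries, and receptor coregulators in E2 plus fulvestrant replicate 1 and vehicle replicate 2. Those 3 libraries also called the largest shares of all protein-coding genes (54.0% to 60.7%, against 20.2% to 44.5% elsewhere). Heat shock genes were called at 11, 6 and 12 of 12 in vehicle and 12, 3 and 4 in E2 plus fulvestrant, and Hspa1b, an inducible HSP70 gene, was called in all 6 at 94.5, 34.5 and 90.7 against 98.3, 86.2 and 13.2. Reads of Hspa1b and its near-identical neighbour Hspa1a may be hard to tell apart. Hypoxia genes were called at 10, 9 and 10 of 12 against 12, 1 and 4. Of these 12, 7 were called in all vehicle lists and 1 in all E2 plus fulvestrant lists, beside 5229 and 1415 of 21728 protein-coding genes. That 1 was Vegfa, the angiogenic factor (85.3, 49.5 and 55.4), which 1 vehicle list called (59.8). Cell cycle genes were called at 12, 6 and 12 of 14 against 13, 1 and 4, with Ccne1, encoding cyclin E1, in 5 lists. Receptor coregulators were called at 10, 11 and 9 of 12 against 12, 7 and 1.

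Matrix genes and the study's own lists were also called most often in vehicle replicates 1 and 3 and E2 plus fulvestrant replicate 1. So were all protein-coding genes, at 54.0% to 60.7% there and 20.2% to 44.5% in the other lists. TGF-beta and matrix genes were called at 16, 14 and 19 of 20 in vehicle and 18, 7 and 4 in E2 plus fulvestrant. Ltbp1, which anchors latent TGF-beta in the matrix, was called in 5 lists, at 82.9, 70.2 and 89.5 against 77.1 and 90.0 in replicates 1 and 2. Lox, the collagen cross-linking enzyme, was also called in 5, at 83.0, 70.2 and 95.8 against 92.8 and 72.7 in replicates 1 and 3. The 58 genes of the study's E2 list were called at 44, 39 and 44 against 46, 19 and 12, and 33 genes of its E2 plus fulvestrant list at 29, 20 and 27 against 30, 6 and 11. Svil, encoding supervillin, was the E2-list gene called in all 6, at 88.2, 97.1 and 75.7 against 74.8, 94.4 and 72.7. Fkbp5, a steroid receptor co-chaperone, was the gene of the other list called in all 6, at 88.2, 98.9 and 81.3 against 93.3, 12.5 and 39.1.

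**Figure D5:**
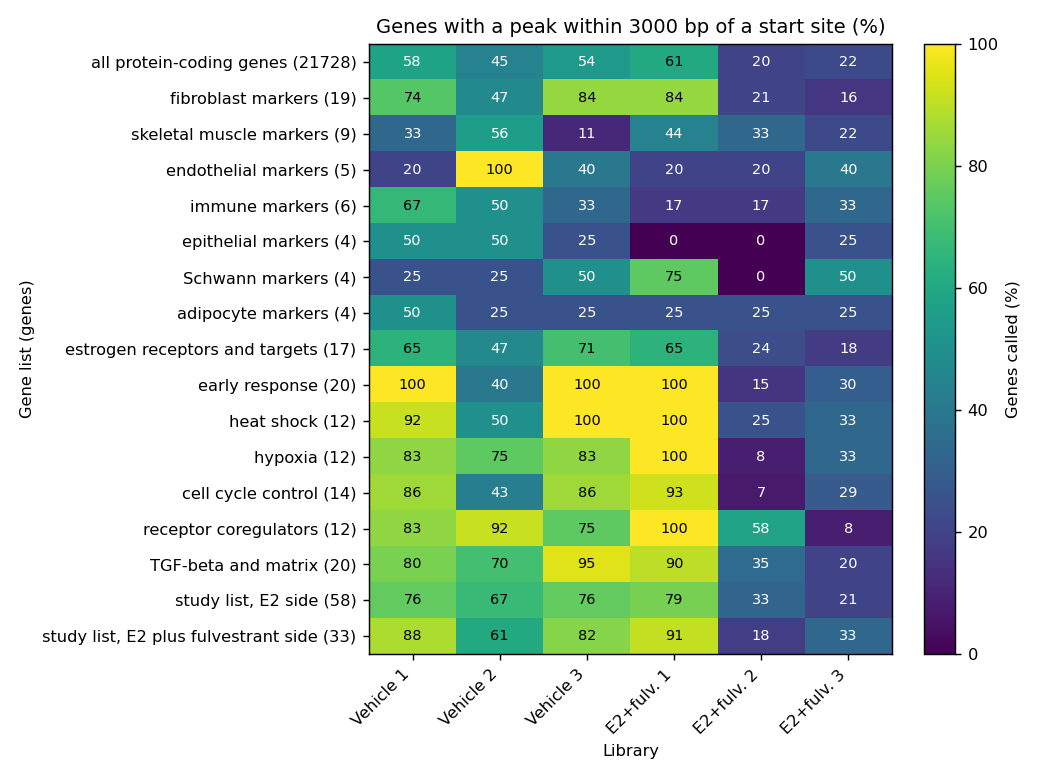
Percentage of the genes of each list (rows, number of genes in parentheses) with a peak within 3000 bp of a start site in each library (columns); colour runs from 0 to 100%. Early response genes were at 100% in vehicle 1, vehicle 3 and E2 plus fulvestrant 1, and at 15% to 40% in the other 3 libraries. All protein-coding genes were at 54.0% to 60.7% and at 20.2% to 44.5% in the same libraries.

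The nearest protein-coding gene was on a list for 7 of the 412 one-group regions (1.70%), against 2.33% of all 283617 regions. A vehicle-only region was 10597 bp downstream of a start of Fn1, the fibronectin gene, and was called in no E2 or fulvestrant library. Pcdh7, a protocadherin gene of the E2 list, was the nearest coding gene to 2 vehicle-only regions, at 1458214 and 1216927 bp. An E2 plus fulvestrant-only region lay 71799 bp upstream of Twist2, a mesenchymal factor. The others were near Aff3, Dlgap1 and Smad2, all vehicle-only.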

How the data were processed

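ATAC-seq reads of primary LAM fibroblasts were trimmed by the authors with Trimmomatic 0.39, aligned with Bowtie2 to mm10, cleared of duplicates with Picard 2.21.4, and called with MACS2 for each library separately, without a model, with a shift of -100 and an extension of 200. The deposited lists hold for each peak a score, a fold enrichment (ratio), the −log10 p and −log10 q, and the summit position, and list peaks down to p of 0.01. They hold no counts, so no count model was run. Pileups were recovered from fold enrichment and p (whole within 0.002). Start sites were from GENCODE M21. Ranks were compared with limma 3.58.1 (R 4.3.3, Benjamini-Hochberg at 0.05) and single values with exact two-sided permutation tests (Python 3.11.15). Scripts were tested on simulated data. Named regions were the 5 promoter and 5 distal regions of each direction with the highest minimum percentile, and the 5 with the lowest p each way in the rank test. Listed genes were chosen by the number of libraries that called them, or by calling in one group only. Some, among them Esr1, Pgr and Greb1, were named outside this rule. Members and lists were chosen with earlier results of these data known. Alternatives were stricter peaks, lists of one length, summit windows, other ranks and promoter distances, and libraries left out.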

Additional observations from a re-analysis of the deposited data

How the results depend on the processing

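Counts of one-group regions moved under most alternatives, but not with merged summit windows (263 and 91, against 317 and 95). Vehicle-only and E2 plus fulvestrant-only regions numbered 41 and 12 with q of 0.05 or less, 32 and 68 with 20000 peaks a list, 60503 and 44292 within replicate number 1, and 3169 and 855 within numbers 2 and 3. They ran from 395 to 4861 and from 136 to 843 when 1 library was left out, and were 2262 and 38443 without vehicle replicate 2 and E2 plus fulvestrant replicates 2 and 3, an alternative chosen after seeing the data. Listed genes called in all libraries of either group numbered 97, against 10 with q of 0.05 or less and 44 with promoters of 1000 bp. Within replicate number 1, differences turned for the promoter share (6.27), promoter rank (6.77), AP-1 (1.05), the cyclic AMP response element (0.0271), CTCF (0.302), nuclear factor I (0.00589), TEAD (0.286) and the E-box (1.14), and within numbers 2 and 3 for RUNX (-0.0549). With q of 0.05 or less they turned for distal rank (-0.478), the cyclic AMP response element (0.0106), RUNX (-0.464) and the share of vehicle-only regions in fulvestrant minus E2 (1.79). With 20000 peaks they turned for the cyclic AMP response element (0.0194) and RUNX (-0.0972), and within 50 bp for the former (0.00338). Leaving out 1 library gave -5.99 to 3.13 for promoter share, -10.8 to -0.475 for promoter rank, -0.709 to 6.36 for distal rank, -1.16 to -0.49 for log2 peak number, -2.44 to 0.211 for AP-1, -0.0312 to 0.0227 for the cyclic AMP response element, -0.230 to 0.0898 for CTCF, -1.60 to 0.241 for TEAD and -0.168 to 0.222 for RUNX. The cause was not tested. The rank test called 0 regions in either direction (limma) under every alternative run, the lowest adjusted p being 0.245. With the replicate block it also called 0 (9 higher and 4 lower at an unadjusted p under 0.05). For same-numbered libraries, deviations from the group mean at the regions of the rank test correlated at 0.209, 0.189 and -0.067. Not every pair thus deviated together, and the numbers were not taken as pairs. The replicate 1 libraries of all treatments nevertheless shared their few chromosome Y peaks (22 to 36).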
